A study of Mus musculus with 12 samples.

Results

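The genes of 10 bZIP transcription factors were followed through the chromatin accessibility of thymic invariant natural killer T (iNKT) cells: Fos, Fosb, Fosl2, Jun, Junb, Jund, Batf and Batf3, whose products form AP-1 and AP-1-like dimers, and Bach1 and Bach2. Every 500 bp region of the accessibility table that overlapped one of these gene bodies or the 15 kb on either side was taken, which gave 124 of 63309 regions. Bach2 held 41 of them, Fos and Junb 13 each, Fosb 12, Fosl2 10, Bach1 and Jund 9 each, Batf 7, and Batf3 and Jun 5 each. All 10 genes and all 124 regions entered the description, and each region passed the filter on low values (described with the first test) in at least 1 comparison.

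The libraries were made by ATAC-seq, in which a transposase inserts sequencing adapters where DNA is open. The cells came from thymi of untreated mice, 8 to 9 weeks old, that were either C57BL/6 wildtype or Hivep3-/-, a germline knockout of the zinc finger factor gene Hivep3 that had been crossed onto the C57BL/6 background. From each genotype the iNKT1, iNKT2 and iNKT17 subsets were sorted with the surface markers CD122, ICOS, Izumo1r and CD138, and each of the 6 groups has 2 libraries. The sorted cells were pooled for the transposition and separated again by ICOS and CD138 only, so that the subset of a library rests on those 2 markers. The sample titles number single mice whereas the protocol describes pooled thymi, and p-values therefore measure the spread between libraries.

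The sorted subsets carried the accessibility of their markers. At the strongest region near a start, 5 of 5 iNKT1 markers were highest in iNKT1 cells and 6 of 6 iNKT17 markers were highest in iNKT17 cells, in each genotype. Of the iNKT2 markers 4 of 5 were highest in iNKT2 cells, the exception being Gata3. Of 12 markers of double-positive thymocytes, B cells and myeloid cells, 10 had no region at a start, and the others were Pax5 and Cd14. Both of the latter reached the level used below for testing in all 6 groups. Their log2 group means ran from 2.92 to 4.61 at Pax5 and from 3.83 to 4.18 at Cd14. The values are log2 insertions per kilobase after the normalization of the authors, and they are called log2 normalized insertions here. The normalization fixed the sums of the libraries, so the depth is not known from the table. The number of distinct values up to the library's median, which is larger where low values are less coarse, ranged from 73 to 491 over the 12 libraries. At the Hivep3 locus, which had 21 regions, the strongest start region lay between 6.50 and 6.72 in C57BL/6 libraries and between 6.36 and 6.51 in Hivep3-/- libraries. It does not check the deletion.

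AP-1 is a dimer of a Fos family and a Jun family protein, joined through their leucine zippers, and it binds a short palindromic site. In T cells it is induced through the antigen receptor and MAP kinases, and it often binds beside NFAT. Batf and Batf3 lack the transactivation domain of Fos proteins, pair with Jun proteins and bind with IRF4 or IRF8 at composite sites, and Batf is required for interleukin-17-producing T cells. Bach1 and Bach2 carry a BTB domain, pair with small Maf proteins and repress genes at sites that contain the AP-1 core. Bach2 is known in T cells for restraining effector programs, partly by occupying AP-1 sites. iNKT1 cells are the T-bet-dependent, interferon-producing subset, iNKT2 cells produce interleukin-4, and iNKT17 cells depend on RORgt and produce interleukin-17.

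Of the 124 regions, 16 (12.9%) held the AP-1 site TGAGTCA on either strand, against 11.5% of all 63309 regions. The ROR site TAGGTCA was present in 9 (7.26%, against 5.45% of all regions), the T-box site AGGTGTGA in 7 (5.65%, against 2.91%), the Runt site AACCACA in 16 (12.9%, against 17.4%) and the cAMP response element TGACGTCA in 2 (1.61%, against 1.55%). None of these motifs contains another. The sequences below are the stretches of RefSeq GRCm38.p6 (mm10) around the motif in regions whose accessibility is described further on, all given on the plus strand with the motif in capitals. The 6 with an AP-1 site are own promoters or regions with the largest differences. The Fos and Fosl2 regions with a ROR and a T-box site were added because the subset and the genotype comparison turn on them, and they were chosen after their values were seen. At Fosl2 (chr5:32135844-32135870) and Bach1 (chr16:87698989-87699015) the site lies in transcribed sequence at the promoter and only its surroundings are given. The other stretches are Jund 3.98 kb from the gene start (chr8:70702860-70703059), Batf at 26.1 kb (chr12:85712536-85712735, with an AP-1 site followed by a ROR site), Bach2 at 167 kb (chr4:32405684-32405883) and at 188 kb (chr4:32426553-32426752), Fosl2 at 22.5 kb (chr5:32158042-32158241, T-box site) and Fos 2.15 kb before the start (chr12:85471646-85471845, ROR site).
Fosl2 promoter: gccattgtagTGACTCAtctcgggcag
Jund 3.98 kb: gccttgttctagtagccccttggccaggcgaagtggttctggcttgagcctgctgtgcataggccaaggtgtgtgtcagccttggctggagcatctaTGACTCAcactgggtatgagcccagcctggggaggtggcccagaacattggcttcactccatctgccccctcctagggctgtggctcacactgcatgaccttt
Batf 26.1 kb: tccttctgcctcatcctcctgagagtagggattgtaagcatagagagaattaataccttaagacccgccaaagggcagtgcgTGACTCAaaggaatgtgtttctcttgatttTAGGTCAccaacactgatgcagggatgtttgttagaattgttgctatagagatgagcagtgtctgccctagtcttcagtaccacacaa
Bach1 promoter: gcagagggagTGAGTCAcctgaccgcc
Bach2 167 kb: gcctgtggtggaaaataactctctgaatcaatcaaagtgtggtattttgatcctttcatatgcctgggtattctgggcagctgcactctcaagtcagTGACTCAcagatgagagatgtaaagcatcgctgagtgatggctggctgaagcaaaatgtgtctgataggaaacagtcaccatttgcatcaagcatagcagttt
Bach2 188 kb: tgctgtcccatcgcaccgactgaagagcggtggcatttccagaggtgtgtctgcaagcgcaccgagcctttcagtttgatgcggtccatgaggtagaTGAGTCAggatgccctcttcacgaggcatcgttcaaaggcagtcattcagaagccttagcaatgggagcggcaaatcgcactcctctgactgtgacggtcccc
Fosl2 22.5 kb: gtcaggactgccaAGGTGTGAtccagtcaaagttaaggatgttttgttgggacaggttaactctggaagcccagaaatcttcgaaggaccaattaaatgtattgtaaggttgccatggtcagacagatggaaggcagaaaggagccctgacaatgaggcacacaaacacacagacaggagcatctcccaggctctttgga
Fos upstream: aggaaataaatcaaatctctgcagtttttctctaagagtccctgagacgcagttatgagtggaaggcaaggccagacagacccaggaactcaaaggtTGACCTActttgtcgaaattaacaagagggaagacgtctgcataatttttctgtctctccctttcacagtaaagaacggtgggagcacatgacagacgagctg
The letters are a description of these windows, and no binding was measured.

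Own promoters were open in all subsets and both genotypes. A region was tested when it reached a mean of 5 on the linear scale in one of the compared groups, and it was called when limma's adjusted p was under 0.1 and the change was at least 3-fold. A region under that mean in one group entered through the other, so its test rests on the group where it was high. By that rule 0 of the 24 own-promoter regions were called in any of the 12 comparisons, while among all promoter regions measured, 5.71% to 7.95% were called in the C57BL/6 subset comparisons. In those comparisons 7, 10 and 12 of the 24 had an unadjusted p under 0.05 for iNKT1 against iNKT2, iNKT1 against iNKT17 and iNKT2 against iNKT17, where 54.4%, 57.2% and 51.9% of all regions had one. Between the genotypes 4, 10 and 4 did for the iNKT1, the iNKT2 and the iNKT17 subset, against 17.8%, 25.3% and 15.8% of all regions. At limma's adjusted p under 0.1 and any fold, 7, 10 and 12 of the 24 passed in the subset comparisons. Among all promoter regions 39.6%, 42.3% and 35.7% passed. Of the own promoters that passed, 3, 9 and 12 were lower in the subset named first. Between the genotypes 0, 4 and 2 of the 24 passed, against 4.41%, 9.99% and 2.61% of all promoter regions. The range of the 6 group means at the strongest own-promoter region was 0.21 on the log2 scale at Jun, 0.34 at Fosl2, Bach1 and Bach2, 0.47 at Junb and Jund, 0.52 at Fosb, 0.75 at Fos, 0.93 at Batf and 1.10 at Batf3. The regions called were thus outside the genes' own promoters, in introns, exons and flanking sequence and in a few cases at a start of another gene.

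**Figure D1:**
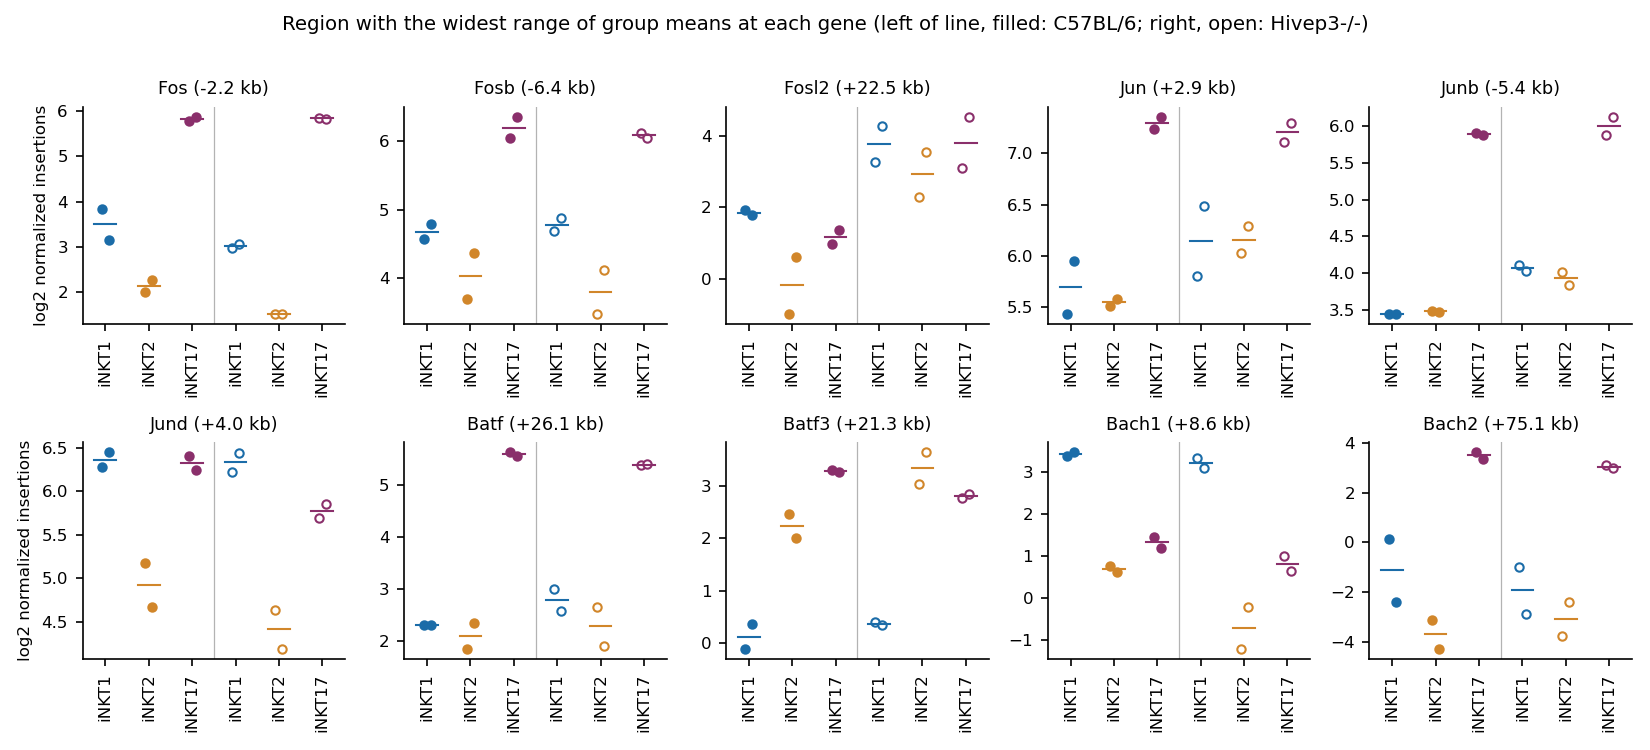
Accessibility (log2 normalized insertions, vertical axis, own scale in each panel) in each of the 12 libraries at the region of each gene with the widest range of group means; points are libraries, short lines are group means, filled points are C57BL/6 and open points Hivep3-/-. The Fosl2 region is higher in every Hivep3-/- library than in every C57BL/6 library, whereas the Fos, Junb and Batf regions are highest in iNKT17 cells of both genotypes.

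Between the subsets of C57BL/6 mice the regions were called about as often as all regions of the table, but those called between iNKT2 and iNKT17 cells were mostly higher in iNKT17. Of 116 tested regions, 11 were called higher in iNKT1 than in iNKT2 cells and 7 lower, which is 15.5% against 16.0% of all regions tested (7.33% higher and 8.71% lower). Between iNKT1 and iNKT17 cells 7 of 121 were higher in iNKT1 and 14 higher in iNKT17, against 9.72% and 10.8% of all regions. Between iNKT2 and iNKT17 cells 1 of 117 was higher in iNKT2 and 20 were higher in iNKT17, against 7.72% and 8.49% of all regions. The 20 were unevenly spread, with 7 at Fos, 4 at Fosb, 5 at Bach2, 2 at Batf and 1 each at Jun and Junb. Several of them are neighbours, and Fosl2, Jund, Batf3 and Bach1 had 0. The median change in that comparison was −0.42 on the log2 scale over the tested regions of these genes and 0.03 over all regions tested. In bulk libraries a region open in fewer cells and a region less open in each cell cannot be told apart.

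Fos, the prototype partner of the AP-1 dimer and an immediate early gene, was flanked by regions that were most open in iNKT17 and least open in iNKT2 cells. The Fos promoter region (chr12:85473304-85473803) measured 6.88 and 6.73 in C57BL/6 iNKT1, 6.42 and 6.28 in iNKT2 and 7.10 and 6.88 in iNKT17 libraries, and 6.65 and 6.55, 6.30 and 6.18, and 7.01 and 6.66 in the Hivep3-/- libraries in the same order. It varied little. The region 2.15 kb upstream (chr12:85471490-85471989, intergenic), which holds the ROR site shown above, measured 3.84 and 3.16 in C57BL/6 iNKT1, 2.00 and 2.28 in iNKT2 and 5.79 and 5.87 in iNKT17 libraries, and 2.98 and 3.06, 1.52 and 1.52, and 5.85 and 5.83 in Hivep3-/- libraries. The 4 iNKT17 libraries were above all others and the groups of a genotype did not overlap. In C57BL/6 cells it was lower in iNKT2 than in iNKT17 by a log2 change of −3.69 ± 0.21 (SE, limma, adjusted p = 4.0e-08) and lower in iNKT1 than in iNKT17 by −2.33 ± 0.21 (adjusted p = 9.6e-07).

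The same order was measured over a stretch at the 3′ end of Fos. At the region 4.07 kb from the start, just past the gene, the C57BL/6 libraries measured 6.66 and 6.65 in iNKT1, 4.97 and 4.44 in iNKT2 and 7.62 and 7.72 in iNKT17 cells. Between iNKT2 and iNKT17 the change there was −2.96 ± 0.14 (adjusted p = 1.4e-08, limma) and between iNKT1 and iNKT2 it was 1.95 ± 0.14 (adjusted p = 2.9e-07). The neighbours at 2.85, 3.53 and 4.96 kb were also called in these comparisons, with changes of −2.93, −2.80 and −2.33 between iNKT2 and iNKT17. Upstream, the regions 5.00 and 1.58 kb before the start were called between iNKT2 and iNKT17, with changes of −1.73 and −1.62. All 7 were within the called set of iNKT2 against iNKT17 in Hivep3-/- cells as well. The regions from 12.3 kb to 18.4 kb past the start had ranges of group means between 0.23 and 0.97, and none was called.

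**Figure D2:**
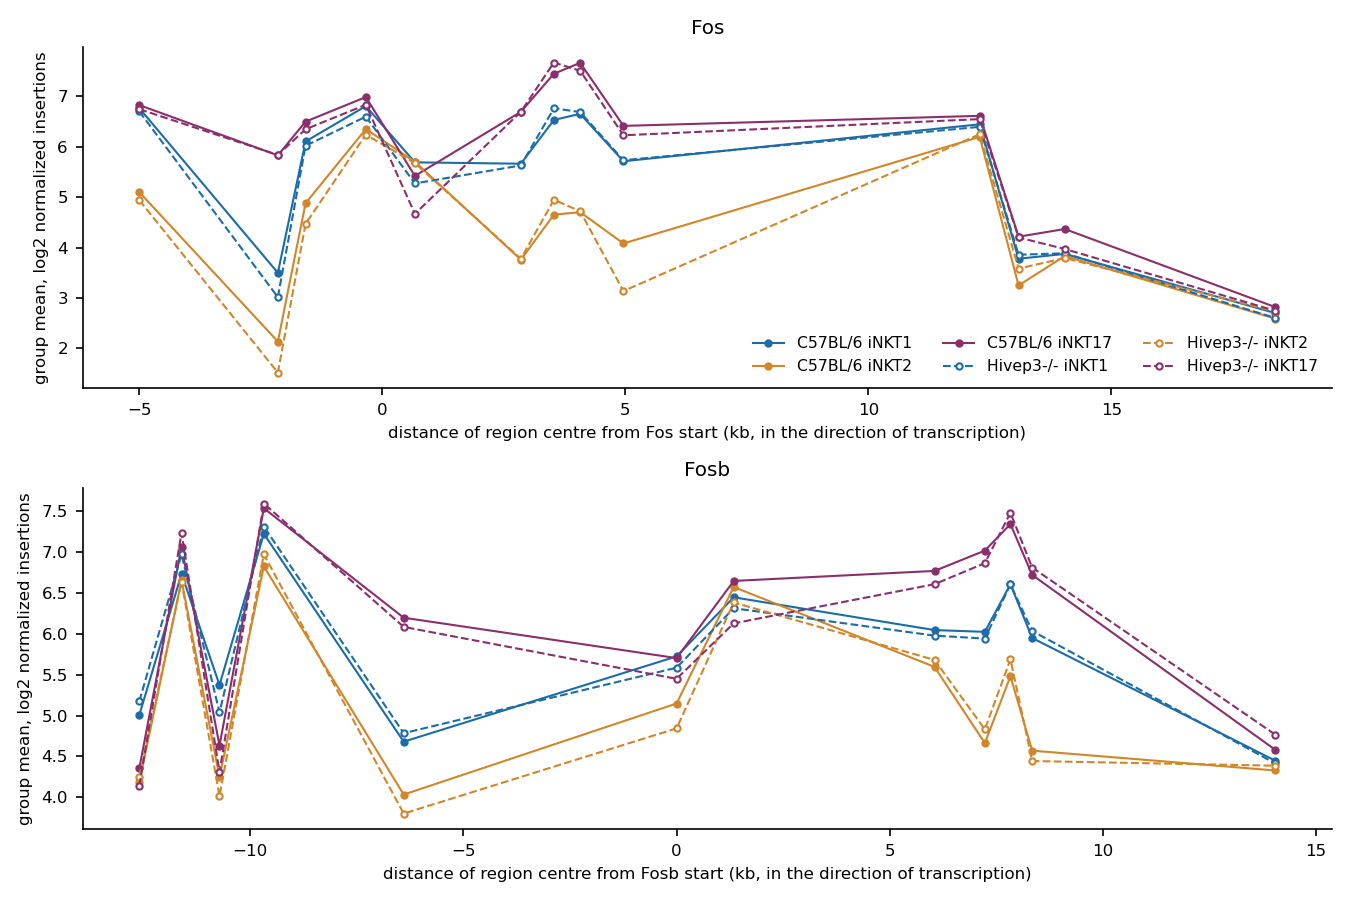
Group means of accessibility (log2 normalized insertions) against the distance of each region's centre from the Fos and Fosb start in kb; solid lines and filled points are C57BL/6, dashed lines and open points Hivep3-/-, with iNKT1 in blue, iNKT2 in orange and iNKT17 in purple. At the 3′ ends iNKT17 lies above iNKT1 and iNKT1 above iNKT2, and the lines of the 2 genotypes run close together.

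Fosb, a Fos paralog also induced early, showed the order iNKT17, iNKT1, iNKT2 at its own 3′ end. Its strongest promoter region (chr7:19308457-19308956) measured 6.61 and 6.28 in C57BL/6 iNKT1, 6.69 and 6.46 in iNKT2 and 6.89 and 6.40 in iNKT17 libraries, and 6.36 and 6.27, 6.35 and 6.42, and 6.33 and 5.92 in Hivep3-/- libraries. No subset stood apart at this region, which lies 1.34 kb into the gene. The weaker promoter region over the start (chr7:19309802-19310301) had a wider range of group means, 0.88, and was lowest in iNKT2 cells. It measured 5.28 and 5.02 in C57BL/6 iNKT2 libraries, against 5.61 to 5.83 in the other C57BL/6 libraries. In Hivep3-/- mice it measured 4.88 and 4.81 in iNKT2 libraries, against 5.28 to 5.62 in the others. The region 6.40 kb upstream (chr7:19316207-19316706, intergenic) measured 4.57 and 4.78, 3.70 and 4.37, and 6.04 and 6.35 in C57BL/6 iNKT1, iNKT2 and iNKT17 libraries, and 4.69 and 4.88, 3.48 and 4.12, and 6.12 and 6.05 in Hivep3-/- libraries. It was higher in all iNKT17 libraries, and the change between iNKT2 and iNKT17 was −2.17 ± 0.23 in C57BL/6 cells (limma, adjusted p = 4.8e-06). Together with it the regions at 7.23 kb (an exon), 7.83 kb (intergenic) and 8.34 kb (at a start of Gm26802) were called between iNKT2 and iNKT17, with changes of −2.36, −1.86 and −2.15. At these 3 regions iNKT1 exceeded iNKT2 by 1.36, 1.13 and 1.38, which is under 3-fold.

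Averaged over all regions of a gene, Fos had the widest range of group means of the 10 genes. The mean over its 13 regions was 5.40 ± 0.16 (SD, n = 2) in C57BL/6 iNKT1, 4.40 ± 0.16 in iNKT2 and 5.99 ± 0.12 in iNKT17 libraries, with a range of 1.69 over the 6 groups. Among 7089 protein-coding genes outside these windows with at least 5 regions, the 3 whose mean profile over the 12 libraries was most like that of Fos were Atm (Pearson's r = 0.99), Rap1b (0.99) and Cep63 (0.98). The points share their libraries and groups, and 195 of the genes compared had an r over 0.9, so the likeness is only a description.

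Fosl2 encodes Fra-2, a Fos family protein that lacks the C-terminal activation domain of Fos. Its promoter region (chr5:32135565-32136064), which contains the AP-1 site shown above, measured 7.70 and 7.85, 7.63 and 7.80, and 8.06 and 8.03 in C57BL/6 iNKT1, iNKT2 and iNKT17 libraries, and 7.74 and 7.96, 7.65 and 7.83, and 7.88 and 8.02 in Hivep3-/- libraries. An intronic region 13.0 kb into the gene (chr5:32148541-32149040) set iNKT1 cells apart, with 6.17 and 6.20 in C57BL/6 iNKT1, 3.33 and 3.62 in iNKT2 and 3.49 and 4.24 in iNKT17 libraries. It was higher in iNKT1 than in iNKT2 by 2.71 ± 0.20 (adjusted p = 3.5e-07, limma) and than in iNKT17 by 2.32 ± 0.20 (adjusted p = 5.6e-07). The Hivep3-/- libraries had 6.49 and 6.51, 4.40 and 4.45, and 4.94 and 4.64, and iNKT1 was again called higher than each other subset.

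Of the Jun family, Jun and Junb had single regions that were high in iNKT17 cells. The Jun promoter (chr4:95051960-95052459) measured 7.27 and 7.37, 7.33 and 7.28, and 7.54 and 7.49 in C57BL/6 iNKT1, iNKT2 and iNKT17 libraries, and 7.26 and 7.38, 7.51 and 7.46, and 7.46 and 7.42 in Hivep3-/- libraries. The region 2.86 kb from the start, at the 3′ end of Jun and at a start of the noncoding gene Gm12703 (chr4:95049112-95049611), measured 5.43 and 5.95, 5.51 and 5.58, and 7.23 and 7.36 in C57BL/6 iNKT1, iNKT2 and iNKT17 libraries, and 5.81 and 6.48, 6.02 and 6.29, and 7.11 and 7.30 in Hivep3-/- libraries. All iNKT17 libraries lay above the rest. In Hivep3-/- cells the group means were 6.14 in iNKT1, 6.16 in iNKT2 and 7.20 in iNKT17, and the region was not called between iNKT17 and either other subset. In C57BL/6 cells the change was −1.60 ± 0.19 between iNKT1 and iNKT17 (limma, adjusted p = 1.1e-05) and −1.75 ± 0.19 between iNKT2 and iNKT17 (adjusted p = 7.8e-06). The former is just past 3-fold, and it was −1.34 and no longer called without C57BL/6 iNKT1 replicate 1, and −1.54 without C57BL/6 iNKT17 replicate 2.

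Junb, the Jun protein that limits c-Jun and is needed in interleukin-17-producing T cells, had 2 neighbouring upstream regions of opposite order. Its strongest promoter region (chr8:84976143-84976642) measured 8.04 and 8.06, 7.98 and 8.09, and 8.41 and 8.51 in C57BL/6 iNKT1, iNKT2 and iNKT17 libraries, and 8.14 and 8.48, 8.22 and 8.36, and 8.40 and 8.60 in Hivep3-/- libraries. This region lies 2.33 kb into the gene. The promoter region 0.17 kb before the gene start (chr8:84978638-84979137) was more level, with group means from 7.27 to 7.52 over the 6 groups. The region 5.36 kb upstream (chr8:84983826-84984325, intergenic) measured 3.44 and 3.44 in C57BL/6 iNKT1, 3.49 and 3.46 in iNKT2 and 5.91 and 5.88 in iNKT17 libraries, and 4.11 and 4.03, 4.01 and 3.84, and 5.88 and 6.13 in Hivep3-/- libraries. It was high in iNKT17 cells of both genotypes, with a change of −2.46 ± 0.14 between iNKT1 and iNKT17 (adjusted p = 1.3e-08) and of −2.42 ± 0.14 between iNKT2 and iNKT17 (adjusted p = 3.6e-08, limma). At 4.21 kb upstream, about a kilobase away, the C57BL/6 libraries measured 5.46 and 5.62 in iNKT1, 4.84 and 4.83 in iNKT2 and 3.92 and 3.88 in iNKT17 cells, and the change between iNKT1 and iNKT17 was 1.64 ± 0.12 in the other direction (adjusted p = 1.6e-07).

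Jund, the Jun family member that is expressed in resting cells, had no region called in the C57BL/6 comparisons. Its promoter (chr8:70698704-70699203) measured 7.54 and 7.76, 7.59 and 7.73, and 7.83 and 7.79 in C57BL/6 iNKT1, iNKT2 and iNKT17 libraries, and 7.49 and 7.85, 7.24 and 7.42, and 7.58 and 7.69 in Hivep3-/- libraries. The widest difference was at the region 3.98 kb from the start (chr8:70702685-70703184), at a start of the neighbouring gene Iqcn and with the AP-1 site shown above. It measured 6.28 and 6.45, 5.18 and 4.68, and 6.40 and 6.24 in C57BL/6 iNKT1, iNKT2 and iNKT17 libraries, and 6.22 and 6.44, 4.64 and 4.19, and 5.70 and 5.85 in Hivep3-/- libraries. The iNKT2 libraries were the lowest in each genotype, and the change between iNKT1 and iNKT2 was 1.43 ± 0.17 in C57BL/6 cells (limma, adjusted p = 1.8e-05), under 3-fold, and 1.91 in Hivep3-/- cells, where it was called.

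Batf had 2 regions that were far more open in iNKT17 cells than in the other subsets. Its promoter (chr12:85686430-85686929) measured 5.89 and 5.88, 6.42 and 6.35, and 6.66 and 6.66 in C57BL/6 iNKT1, iNKT2 and iNKT17 libraries, and 6.06 and 6.02, 6.32 and 6.58, and 6.72 and 6.92 in Hivep3-/- libraries. The region 26.1 kb from the start and downstream of the gene (chr12:85712481-85712980), where an AP-1 and a ROR site lie within the printed stretch, measured 2.30 and 2.30 in C57BL/6 iNKT1, 1.83 and 2.33 in iNKT2 and 5.64 and 5.55 in iNKT17 libraries, and 3.00 and 2.57, 2.64 and 1.90, and 5.38 and 5.40 in Hivep3-/- libraries. The iNKT17 libraries stood apart above all others, with changes of −3.30 ± 0.26 between iNKT1 and iNKT17 (adjusted p = 2.1e-07) and −3.51 ± 0.26 between iNKT2 and iNKT17 (adjusted p = 2.3e-07, limma). An intronic region at 20.5 kb was also highest in iNKT17 cells, with changes of −3.19 ± 0.30 and −1.96 ± 0.30 in C57BL/6 cells.

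Batf3, a Batf paralog best known in dendritic cells, had a downstream region that was least open in iNKT1 cells. Its promoter (chr1:191097297-191097796) measured 3.49 and 3.82, 4.05 and 4.41, and 4.80 and 4.71 in C57BL/6 iNKT1, iNKT2 and iNKT17 libraries, and 3.89 and 4.0, 4.28 and 4.38, and 4.31 and 4.23 in Hivep3-/- libraries. The region 21.3 kb from the start (chr1:191118874-191119373, downstream) measured −0.11 and 0.36, 2.45 and 2.00, and 3.29 and 3.25 in C57BL/6 iNKT1, iNKT2 and iNKT17 libraries, and 0.40 and 0.35, 3.02 and 3.63, and 2.77 and 2.83 in Hivep3-/- libraries. All 4 iNKT1 libraries were below the others. In C57BL/6 cells it was called between iNKT1 and iNKT17, with a change of −3.14 ± 0.31 (limma, adjusted p = 1.8e-06), and it did not pass the filter on low values for iNKT1 against iNKT2.

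Bach1, which is regulated by heme and represses genes of the oxidative stress response, had 2 intronic regions that were highest in iNKT1 cells. Its promoter (chr16:87698695-87699194), with the AP-1 site shown above, measured 6.50 and 6.51, 6.40 and 6.62, and 6.56 and 6.59 in C57BL/6 iNKT1, iNKT2 and iNKT17 libraries, and 6.44 and 6.68, 6.15 and 6.32, and 6.40 and 6.51 in Hivep3-/- libraries. The intronic region at 8.63 kb (chr16:87707329-87707828) measured 3.37 and 3.47, 0.75 and 0.61, and 1.46 and 1.20 in C57BL/6 libraries of the 3 subsets, and 3.33 and 3.09, −1.22 and −0.22, and 0.99 and 0.63 in Hivep3-/- libraries. Its iNKT1 libraries stood apart in each genotype. In C57BL/6 cells it was higher in iNKT1 than in iNKT2 by 2.74 ± 0.38 (adjusted p = 5.4e-05, limma) and than in iNKT17 by 2.09 ± 0.38 (adjusted p = 3.6e-04). The region at 10.6 kb was also higher in iNKT1 than in iNKT17, by 2.00 ± 0.20 (adjusted p = 1.6e-06).

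Within the introns of Bach2 lay regions that were most open in iNKT1 cells, others most open in iNKT2 cells and others most open in iNKT17 cells. The promoter (chr4:32238414-32238913) measured 5.79 and 6.17, 5.45 and 5.87, and 5.79 and 5.95 in C57BL/6 iNKT1, iNKT2 and iNKT17 libraries, and 5.68 and 6.05, 5.58 and 6.28, and 5.83 and 6.18 in Hivep3-/- libraries. Of the 41 regions 20 had group means that ranged over at least 3-fold, although the mean over all 41 ranged only from 3.51 to 3.98 among the 6 groups. Regions of unlike order thus offset each other in an average over the gene.

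A block of 4 intronic Bach2 regions between 67.1 and 89.9 kb was open in iNKT17 cells. The one at 75.1 kb (chr4:32313684-32314183) had the widest range of all 124 regions, 7.22 on the log2 scale. It measured 0.15 and −2.39 in C57BL/6 iNKT1, −3.12 and −4.31 in iNKT2 and 3.63 and 3.37 in iNKT17 libraries, and −1.0 and −2.89, −3.79 and −2.39, and 3.10 and 2.99 in Hivep3-/- libraries. All iNKT17 libraries were near 3 and all others under 1, and the change between iNKT2 and iNKT17 in C57BL/6 cells was −7.22 ± 0.95 (limma, adjusted p = 3.2e-05). C57BL/6 iNKT2 replicate 2 and Hivep3-/- iNKT2 replicate 1 were at the lowest value of their library there, the former within that change. At 89.9 kb (chr4:32328441-32328940) the C57BL/6 libraries measured −0.42 and −1.01, −1.59 and −1.72, and 3.31 and 3.78, with a change of −5.19 ± 0.44 between iNKT2 and iNKT17 (adjusted p = 8.6e-07) and of −4.25 ± 0.44 between iNKT1 and iNKT17 (adjusted p = 2.9e-06). The neighbours at 67.1 and 68.6 kb were called in the same 2 comparisons. In Hivep3-/- cells the regions at 68.6, 75.1 and 89.9 kb were called in both comparisons and the region at 67.1 kb only between iNKT2 and iNKT17. Its iNKT1 values are described below.

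Other intronic Bach2 regions were most open in iNKT1 cells. The region at 41.2 kb (chr4:32279761-32280260) measured 2.67 and 2.78, −0.10 and 0.42, and 0.49 and 0.10 in C57BL/6 iNKT1, iNKT2 and iNKT17 libraries, and it was higher in iNKT1 than in iNKT2 by 2.57 ± 0.36 (limma, adjusted p = 5.8e-05) and than in iNKT17 by 2.43 ± 0.36 (adjusted p = 6.2e-05). At 126 kb (chr4:32364963-32365462) the values were 3.39 and 3.21, 1.75 and 2.57, and −0.41 and −0.17, and the change between iNKT1 and iNKT17 was 3.59 ± 0.35 (adjusted p = 1.7e-06). Both were called between iNKT1 and iNKT17 in Hivep3-/- cells too, with changes of 2.38 and 2.46. Further into the gene, at 188 and 322 kb, C57BL/6 iNKT1 cells had the lowest values. At 188 kb (chr4:32426402-32426901, with an AP-1 site shown above) the C57BL/6 libraries measured 2.15 and 1.74, 4.44 and 4.42, and 2.86 and 3.28, so that iNKT2 was highest, with a change of −2.48 ± 0.30 between iNKT1 and iNKT2 (adjusted p = 1.6e-05). At 322 kb (chr4:32560202-32560701, an exon shared with the antisense gene Bach2os) they measured 2.72 and 2.74, 5.13 and 5.29, and 4.54 and 4.37, with a change of −2.48 ± 0.15 between iNKT1 and iNKT2 (adjusted p = 8.1e-08) and of −1.72 ± 0.15 between iNKT1 and iNKT17.

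**Figure D3:**
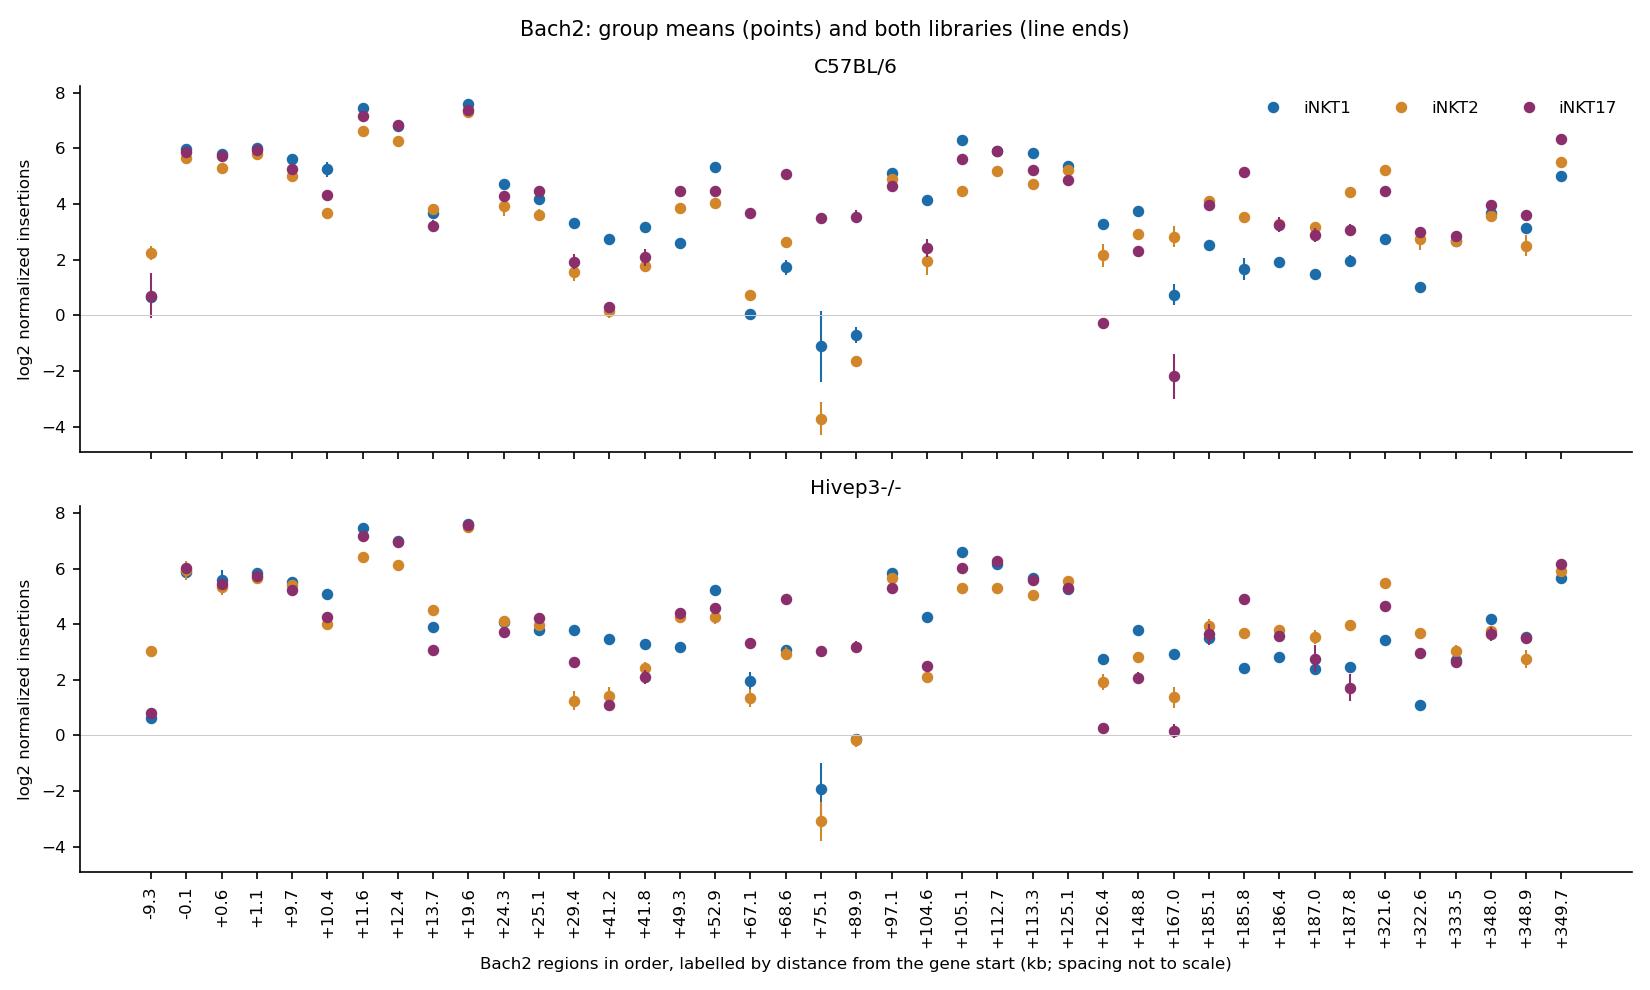
Accessibility (log2 normalized insertions) at the 41 Bach2 regions in order along the gene, labelled by distance from the start in kb, in C57BL/6 (top) and Hivep3-/- (bottom) cells; points are group means and line ends the 2 libraries. The regions at 75.1 and 89.9 kb are near or above 3 in iNKT17 cells alone, and the order of the subsets at 167 kb differs between the panels.

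The subset differences recurred in Hivep3-/- cells, whose libraries are separate from the C57BL/6 ones. Of 120 tested regions 13 were called higher in Hivep3-/- iNKT1 than iNKT2 cells and 4 lower (8.77% and 8.54% of all regions tested). Between iNKT1 and iNKT17 cells 8 of 123 were higher and 11 lower (9.48% and 9.83%), and between iNKT2 and iNKT17 cells 2 of 120 were higher and 18 lower (7.33% and 8.25%). The calls shared with C57BL/6 in the same direction were 12 for iNKT1 against iNKT2 (66.7% of the C57BL/6 calls and 70.6% of the Hivep3-/- calls), 16 for iNKT1 against iNKT17 (76.2% and 84.2%) and 18 for iNKT2 against iNKT17 (85.7% and 90.0%). Over all regions the shares were 69.7% and 64.2%, 76.2% and 81.2%, and 73.0% and 76.4%. Among the 18 C57BL/6 calls for iNKT1 against iNKT2, 1 had the opposite sign in Hivep3-/- cells, the Bach2 region at 167 kb. Over all regions 230 of 9355 such calls did. In the other 2 comparisons 0 of 21 and 0 of 21 calls had the opposite sign, against 85 of 12168 and 52 of 9543 over all regions.

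The comparison of Hivep3-/- with C57BL/6 cells asks how loss of this factor alters accessibility within a subset. Few regions of these genes were called, and those called were higher in Hivep3-/- cells. In iNKT1 cells 2 of 117 tested regions rose, against 0.890% of all regions, and 0 fell (0.264%), with 7 lower at an unadjusted p under 0.05 (8.08%). In iNKT2 cells 3 of 113 rose (0.474% of all regions) and 0 fell (1.20%), with 12 lower at an unadjusted p under 0.05 (12.5%). In iNKT17 cells 1 of 118 rose (0.133% of all regions) and 0 fell (0.138%), with 8 lower at an unadjusted p under 0.05 (7.24%). These 6 calls came from 4 regions, 3 of Fosl2 and 1 of Bach2. The calls at the other 8 genes numbered 0 in limma.

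**Figure D4:**
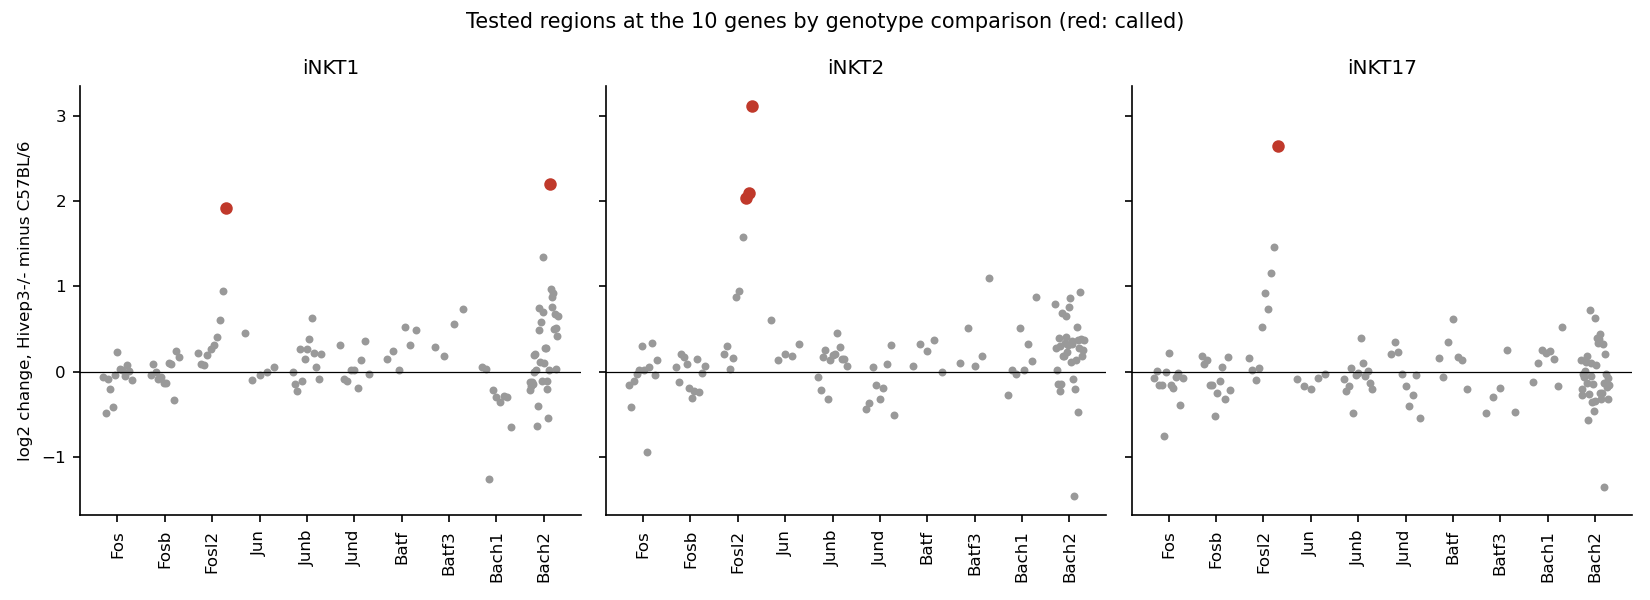
Log2 change in accessibility (Hivep3-/- minus C57BL/6) of every tested region of the 10 genes in iNKT1, iNKT2 and iNKT17 cells; each point is a region, in order along its gene, and red points were called. The Fosl2 points climb towards the 3′ end of the gene in all 3 panels, up to 3.12 in iNKT2 cells.

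A region just past the 3′ end of Fosl2 was more open in Hivep3-/- than in C57BL/6 cells of all 3 subsets. The region 22.5 kb from the start and just downstream of the gene (chr5:32158042-32158541, intergenic) measured 1.91 and 1.78 in C57BL/6 iNKT1, −1.0 and 0.61 in iNKT2 and 0.97 and 1.38 in iNKT17 libraries, and 3.26 and 4.28, 2.30 and 3.56, and 3.10 and 4.54 in Hivep3-/- libraries. Every Hivep3-/- library was above every C57BL/6 library, although the SD of a group reached 1.14. The rise was largest in iNKT2 cells, at 3.12 ± 0.58 (limma, adjusted p = 0.0047), and amounted to 2.65 ± 0.58 for iNKT17 (adjusted p = 0.034) and to 1.92 ± 0.58 for iNKT1 cells (adjusted p = 0.073). The call in iNKT2 cells held when any library was left out. The region was under the mean of 5 in each C57BL/6 group and was tested through the Hivep3-/- group. Without the variance trend the calls in iNKT1 (adjusted p = 0.18) and iNKT17 cells (adjusted p = 0.12) were lost. That in iNKT1 cells was also lost without any 1 of the 4 iNKT1 libraries, with adjusted p from 0.10 to 0.52, and that in iNKT17 cells was lost without C57BL/6 iNKT17 replicate 1 (adjusted p = 0.23) or Hivep3-/- iNKT17 replicate 2 (adjusted p = 0.21).

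The neighbouring exonic regions of Fosl2 rose with it in iNKT2 cells. At 19.8 kb (chr5:32155392-32155891) the iNKT2 libraries measured 2.30 and 3.14 in C57BL/6 and 4.53 and 4.98 in Hivep3-/- mice, and at 20.6 kb (chr5:32156173-32156672) they measured 1.83 and 2.83, and 4.17 and 4.69. The genotypes did not overlap at either, and the changes were 2.03 ± 0.33 (adjusted p = 0.0021) and 2.10 ± 0.35 (adjusted p = 0.0025, limma). Without the 3-fold limit, 7 of the 10 Fosl2 regions were higher in Hivep3-/- iNKT2 cells at an adjusted p under 0.1, against 8.26% of all regions, and 4 of 10 were in iNKT17 cells, against 2.66%. The 2 regions at the Fosl2 promoter were not among them, and along the gene the iNKT2 changes were 0.87 at 8.47 kb, 0.95 at 13.0 kb, 1.58 at 19.2 kb, 2.03, 2.10 and 3.12. In iNKT1 cells the changes at 19.2, 19.8 and 20.6 kb were 0.41, 0.60 and 0.94 and did not pass the test. At 19.8 kb the genotype change was smaller in iNKT1 than in iNKT2 cells by −1.43 ± 0.46 (limma, adjusted p = 0.089), under 3-fold, and at 22.5 kb the 3 interactions missed the threshold, with adjusted p of 0.46, 0.78 and 0.86.

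**Figure D5:**
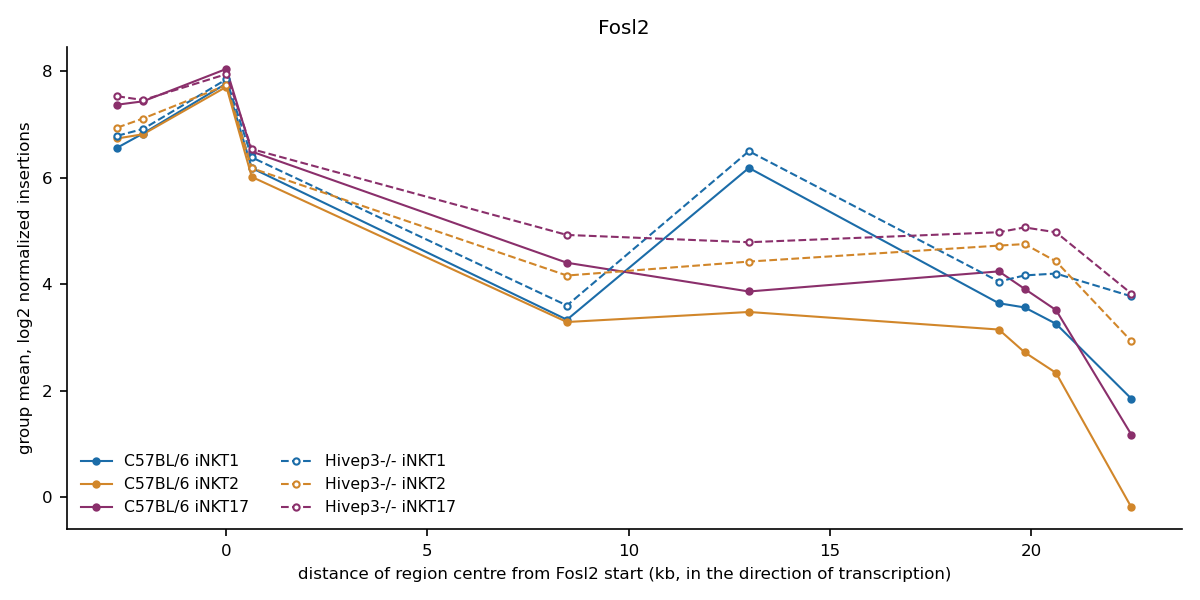
Group means of accessibility (log2 normalized insertions) at the 10 Fosl2 regions against the distance from the Fosl2 start in kb, with solid lines for C57BL/6 and dashed lines for Hivep3-/- cells. The lines of the genotypes meet at the promoter and separate towards the region at 22.5 kb, where C57BL/6 iNKT2 cells are lowest.

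The markers of the subsets did not all stay level between the genotypes. The summed linear level of the 5 iNKT1 markers was 266 to 275 in the C57BL/6 iNKT2 libraries and 220 to 241 in the Hivep3-/- iNKT2 libraries, against 492 to 500 over the iNKT1 libraries of both genotypes. Il2rb had the highest value of the 5 in every group and weighed most in these sums, which were 257 to 269 in C57BL/6 iNKT17 libraries. The log2 means of C57BL/6 and Hivep3-/- iNKT2 cells were 7.62 and 7.56 at Il2rb, 4.81 and 2.73 at Ifng and 3.99 and 2.97 at Xcl1. They were 4.58 and 4.28 at Tbx21 and 2.48 and 3.00 at Klrb1c. The iNKT17 markers summed to 19.1 to 25.0 and 18.6 to 22.3 in the same iNKT2 libraries. In iNKT1 and iNKT17 cells the marker sums of the own subset were 498 to 500 and 257 to 271 in C57BL/6 libraries and 492 to 500 and 250 to 256 in Hivep3-/- libraries. The iNKT2 markers summed to 247 to 260 in the C57BL/6 and to 230 to 241 in the Hivep3-/- iNKT17 libraries. The part of these markers in the changes at Fosl2 was not tested.

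At Bach2, 1 region was called between the genotypes, the intronic region at 167 kb (chr4:32405527-32406026), whose AP-1 site is shown above. It measured 0.36 and 1.13 in C57BL/6 iNKT1, 2.45 and 3.21 in iNKT2 and −1.38 and −3.02 in iNKT17 libraries, and 2.91 and 2.98, 0.99 and 1.75, and −0.10 and 0.40 in Hivep3-/- libraries. In C57BL/6 cells iNKT2 was the highest subset, and in Hivep3-/- cells iNKT1 was. The region was tested through the Hivep3-/- iNKT1 group, since the C57BL/6 group was under the mean of 5. The rise in iNKT1 cells was 2.20 ± 0.56 (adjusted p = 0.032, limma), and the change in iNKT2 cells was −1.46 with an adjusted p of 0.12. Without C57BL/6 iNKT1 replicate 1, or without either Hivep3-/- iNKT1 library, the call in iNKT1 cells was lost, with adjusted p from 0.16 to 0.26.

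The difference between subsets in the genotype change was tested as an interaction, and 3 Bach2 regions were called. Between iNKT1 and iNKT2 cells 1 of 120 tested regions was called (3.06% of all regions), between iNKT1 and iNKT17 cells 2 of 123 (1.42%) and between iNKT2 and iNKT17 cells 1 of 121 (1.02%). At 167 kb the genotype change was larger in iNKT1 than in iNKT2 cells by 3.66 ± 0.79 (adjusted p = 0.016) and smaller in iNKT2 than in iNKT17 cells by −3.81 ± 0.79 (adjusted p = 0.034, limma). For the latter only C57BL/6 iNKT2, with a linear mean of 7.35, reached 5, and the iNKT17 groups were at 0.254 and 1.13. With the filter set on the mean over all 12 libraries the region was not tested. The summed level of the 5 iNKT2 markers was 270 to 297 in the C57BL/6 iNKT1 libraries and 226 to 235 in the Hivep3-/- iNKT1 libraries, and its part in these changes was not tested. At 67.1 kb (chr4:32305651-32306150) the C57BL/6 libraries measured −0.11 and 0.20, 0.79 and 0.68, and 3.68 and 3.69, and the Hivep3-/- libraries 1.63 and 2.28, 1.66 and 1.02, and 3.32 and 3.32. Its iNKT1 libraries were higher in Hivep3-/- than in C57BL/6 mice, a change that was too low to be tested by itself, and its iNKT17 libraries were slightly lower, with an interaction of 2.27 ± 0.47 (adjusted p = 0.028). This region was tested through the iNKT17 groups, with linear means of 12.8 and 9.99, while the iNKT1 groups were at 1.04 and 3.97. At 188 kb the Hivep3-/- libraries measured 2.55 and 2.35, 3.92 and 4.0, and 2.19 and 1.23, and the interaction between iNKT1 and iNKT17 was 1.86 ± 0.42 (adjusted p = 0.043), with the iNKT17 libraries lower in Hivep3-/- mice.

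Genotype changes under 3-fold were measured at further Bach2 regions. Without the 3-fold limit, and with the region at 167 kb among them, 9 of 36 tested Bach2 regions in iNKT1 cells were higher in Hivep3-/- mice at an adjusted p under 0.1 and 0 were lower (1 at an unadjusted p under 0.05), against 5.49% and 3.93% of all regions. In iNKT2 cells 7 of 34 were higher and 0 lower (2 at an unadjusted p under 0.05), against 8.26% and 8.16%. In iNKT17 cells 3 of 36 were higher and 1 lower, against 2.66% and 1.99%, and the median change of the 36 was −0.07. Most Bach2 regions lie outside promoters, where regions passed more often than over the whole table. Of all tested regions outside promoters 13.0%, 21.0% and 6.13% passed in either direction in iNKT1, iNKT2 and iNKT17 cells. The region at 97.1 kb was higher in all 3 subsets, by 0.71 ± 0.12, 0.76 ± 0.12 and 0.63 ± 0.12 (adjusted p = 0.0033, 0.0017 and 0.018, limma). It and the region at 105 kb in iNKT2 cells, with a rise of 0.86 ± 0.10, are named here after their values were seen.

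Of the other genes of the pathway, 32 further bZIP genes gave 208 regions, 10 kinases upstream of AP-1 gave 74 and 5 DNA-binding partners gave 91. Between the genotypes 1 of 195, 4 of 189 and 1 of 198 tested regions of the other bZIP genes were called in iNKT1, iNKT2 and iNKT17 cells (0.513%, 2.12% and 0.505%, against 1.15%, 1.68% and 0.271% of all regions), and in iNKT2 cells 3 of the 4 were lower. They were an exonic and an intronic region of Atf6, a sensor of endoplasmic reticulum stress, which fell by 1.85 and 2.19, and a region at a start of Tef, a PAR bZIP factor, which fell by 2.06. A region 73.9 kb from the start of Crem rose by 1.79 in both iNKT2 and iNKT17 cells, and a region upstream of Atf5 rose by 1.60 in iNKT1 cells. The kinases and the partners had 0 called regions in the 3 genotype comparisons in limma, with 8 of 69, 9 of 70 and 8 of 70 kinase regions and 17 of 83, 23 of 85 and 22 of 82 partner regions at an unadjusted p under 0.05, against 17.8%, 25.3% and 15.8% of all regions.

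Between C57BL/6 subsets the other bZIP regions were called in 19 of 195, 22 of 203 and 27 of 202 tested (9.74%, 10.8% and 13.4%), the kinases in 4 of 70, 1 of 70 and 3 of 71, and the partners in 9 of 89, 18 of 87 and 9 of 88, for iNKT1 against iNKT2, iNKT1 against iNKT17 and iNKT2 against iNKT17. Of all regions 16.0%, 20.5% and 16.2% were called. Of the bZIP calls between iNKT2 and iNKT17 cells 23 of 27 were higher in iNKT17. The largest differences were at Tef, where the start region was higher in iNKT1 than in iNKT17 cells by 9.61, and at an Atf6 intron that was lower in iNKT2 than in iNKT17 cells by 6.55. The size of the Tef change rests on a C57BL/6 iNKT17 mean of −3.17 (SD 1.24), near the lowest value of those libraries, −4.05. Against iNKT2 cells the largest bZIP differences of iNKT1 cells were 5.48 downstream of Ddit3, a stress-induced bZIP gene, and −3.38 downstream of Nfe2l1. Among the partners a region 24.6 kb from the start of Irf8, a partner of Batf proteins, was higher in iNKT1 than in iNKT17 cells by 5.43 and than in iNKT2 cells by 3.57. Its C57BL/6 iNKT17 mean was low and uneven, at −1.64 (SD 2.09). A region upstream of Irf4 was highest in iNKT2 cells, with changes of −3.29 from iNKT2 to iNKT1 and 3.03 over iNKT17, and a Nfatc2 intron was higher in iNKT17 cells than in either other subset by 3.85. Among the kinases the largest differences were at introns of Mapk8, which encodes JNK1 (−2.63 between iNKT1 and iNKT2 and 2.16 between iNKT2 and iNKT17), Mapk14, which encodes p38a (−2.53 between iNKT2 and iNKT17), and Map2k2 (1.90 and 2.22 for iNKT1 against iNKT2 and iNKT17).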

How the data were processed

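ATAC-seq libraries of 12 samples were analysed, 2 for each of iNKT1, iNKT2 and iNKT17 cells of C57BL/6 and Hivep3-/- mice. According to the study's methods the authors trimmed the reads with Trimmomatic (version 0.39 in the submitters' processing notes), aligned them to mm10, called peaks with the ENCODE pipeline, merged the peaks of all samples to 500 bp regions and counted transposase insertions. The deposited table holds log2 values of insertions per kilobase after the authors' normalization with voom, and every region has a library above 3. No counts were analysed here. Coordinates are 1-based on GRCm38.p6, with genes from GENCODE vM21; 329 of 329 RefSeq promoters checked were identical in the FASTA used.

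The 10 genes, the gene lists and the tests were chosen with earlier results of these data known. limma 3.58.1 (R 4.3.3) was fitted on the whole table with 1 mean per group and a variance trend (6 residual and 7.17 prior degrees of freedom). A region was tested if one of the compared groups (of 4 for interactions) averaged 5 or more on the linear scale, with Benjamini-Hochberg adjustment over all regions tested. The code was tested on simulated data. Distances are from the gene start to the region centre, and a promoter region lies within 1000 bp of a start. For each gene the text names its strongest promoter region and the region with the widest range of group means, every region called between genotypes or in an interaction, and the 3 largest called rises and falls of each C57BL/6 subset comparison; other regions are neighbours that were called with them, or are said to be chosen after the values were seen. Genes of the other lists are named where a region was called between genotypes or was the list's largest rise or fall. With 2 libraries per group the smallest two-sided exact permutation p for a single value is 0.333, so no such test is given.

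The titles give the subsets of a genotype the same mouse number. Deviations of same-numbered libraries from their group means correlated over all regions with 0.12 to 0.17 between the subsets of C57BL/6 mice and with 0.13 to 0.15 between those of Hivep3-/- mice, and with 0.091 to 0.17 between libraries of different genotypes, which are different mice. Over the 124 regions of these genes the correlations were 0.14 to 0.46, 0.083 to 0.35 and 0.0061 to 0.62 in the same order. At the Fosl2 regions at 19.8 and 20.6 kb, replicate 2 was above replicate 1 in all 6 groups. The pairing by number was thus not particular to libraries of 1 mouse, and a fit with the number as a block was an alternative. Python 3.11.15, pandas 2.3.3, numpy 2.4.6 and matplotlib 3.10.9 were used.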

Additional observations from a re-analysis of the deposited data

Results flagged for a closer look

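The genotype change differed between subsets by at least 3-fold, by the test of that difference, at 3 Bach2 regions. At 167 kb the difference was 3.66 on the log2 scale between iNKT1 and iNKT2 cells and −3.81 between iNKT2 and iNKT17 cells. At 67.1 kb it was 2.27 and at 188 kb 1.86, both between iNKT1 and iNKT17 cells. The difference of 3.66 was called whichever library was left out; the value of −3.81 lost its call without C57BL/6 iNKT2 replicate 2 (adjusted p = 0.15) or Hivep3-/- iNKT2 replicate 1 (adjusted p = 0.10), and that of 2.27 without Hivep3-/- iNKT1 replicate 2 (adjusted p = 0.16). The value at 188 kb lost its call without any 1 of 5 libraries and ranged from 1.38 to 1.96 in those fits. The groups of 2 libraries are too small for an outlier test.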

How the results depend on the processing

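Of 264 recounts of the called regions of these genes, 222 stayed within 1.5 times the value given, and of 745 refits of 38 single calls 720 kept the call, 25 lost it and 0 reversed. With a 2-fold limit the calls numbered 4, 5 and 4 for the genotype comparison in iNKT1, iNKT2 and iNKT17 cells, 34, 36 and 34 between C57BL/6 subsets, 31 and 31 between Hivep3-/- iNKT1 and the other subsets, and 6, 5 and 2 in the interactions of iNKT1 with iNKT2, iNKT1 with iNKT17 and iNKT2 with iNKT17. The cause there is the lower limit itself. A window of 50 kb, which takes in more regions, gave 33 for C57BL/6 iNKT1 against iNKT17, 26, 32 and 32 in Hivep3-/- cells, and 3 for the interaction of iNKT1 with iNKT2. Without the variance trend the genotype calls were 1 in iNKT1 and 0 in iNKT17 cells, and the interaction of iNKT2 with iNKT17 had 2. Without the filter on low values iNKT17 cells had 2 genotype calls. A filter on the mean over all 12 libraries left 0 for the interactions of iNKT2 with either other subset, since fewer regions were tested. A pseudocount of 1, and a fit of only the compared groups, each left 1 for iNKT1 with iNKT17. Where none is named, the cause was not tested.

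Leaving out each library in turn gave 0 to 2, 2 to 4 and 0 to 4 genotype calls in iNKT1, iNKT2 and iNKT17 cells, 16 to 19, 20 to 24 and 20 to 23 calls between C57BL/6 subsets, 16 to 19, 16 to 21 and 20 to 21 between Hivep3-/- subsets, and 1 to 4, 0 to 3 and 0 to 1 interactions. The genotype calls of iNKT1 cells fell to 1 without either C57BL/6 iNKT1 library and to 0 without either Hivep3-/- iNKT1 library. Those of iNKT17 cells were 0 without C57BL/6 iNKT17 replicate 1 or Hivep3-/- iNKT17 replicate 2 and 4 without Hivep3-/- iNKT17 replicate 1. The interaction of iNKT1 with iNKT2 had 4 calls without C57BL/6 iNKT2 replicate 2 and 2 without any 1 of C57BL/6 iNKT1 replicate 1, C57BL/6 iNKT2 replicate 1, Hivep3-/- iNKT1 replicate 2 and the Hivep3-/- iNKT2 libraries. That of iNKT1 with iNKT17 had 0 without Hivep3-/- iNKT1 replicate 2 and 1 without C57BL/6 iNKT1 replicate 2, Hivep3-/- iNKT1 replicate 1 or Hivep3-/- iNKT17 replicate 2, and that of iNKT2 with iNKT17 had 0 without C57BL/6 iNKT2 replicate 2. With the replicate number as a block, the number of calls stayed within 1.5 times the value given in all 12 comparisons, with 2, 3 and 1 between the genotypes and 18, 21 and 21 between C57BL/6 subsets. The table holds normalized values without counts, so low regions, such as those of Bach2 near or below 0, carry an unknown counting error.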
